A study of Homo sapiens with 4 samples.

Results

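Re-expression of ECM1a, the secreted isoform of extracellular matrix protein 1, was examined in cells whose own ECM1 had been silenced. The comparison set A8i-A, the line with ECM1a, against A8i, the silenced line from which it was made, over all 9885 genes of a table of event numbers, 1 column per library. A gene's value is the number of events listed for it in a library, a whole number from 0 to 32. The kind of event is not named in the sources used here, so a higher number says that more events were listed for a gene and does not give its level of mRNA. Of these genes, 8610 had at least 1 event in A8i or A8i-A, 1275 had none in either, and 167 of those had none in A8 and A8i-B as well.

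All lines stem from HEYA8 (A8), an established human ovarian cancer cell line. A8i cells carry a lentiviral short hairpin RNA directed at ECM1 and were selected with puromycin. A8i-A cells are A8i cells that also express HA-tagged ECM1a from a cDNA. A8i-B cells are A8i cells that express ECM1b from a cDNA, so both share the hairpin, but their vector and selection may differ. The study's methods give several vectors and ways of selection for such lines, and no A8i line with an empty vector was analysed here, so ECM1a cannot be told apart from its vector and selection. Each line gave 1 library, so no difference below has a replicate check, no test was made, and every difference is one between 2 libraries.

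ECM1 is a glycoprotein of the extracellular matrix that binds other matrix proteins. Its isoforms arise by alternative splicing, the choice of which exons and splice sites enter the mature mRNA, and ECM1b lacks an exon that ECM1a holds. Splicing is steered by proteins that bind pre-mRNA, among them the SR proteins, which mostly favour the use of an exon, and the hnRNPs, which often repress it. Matrix proteins signal to cells through integrins, receptors that pass the signal to focal adhesion kinase, AKT and the actin cytoskeleton.

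ECM1 itself (ENSG00000143369, chromosome 1, 150480538 to 150486265 on GRCh37, forward strand) stood at 2 (A8), 2 (A8i), 2 (A8i-A) and 2 (A8i-B) events. The 4 libraries are equal, so the event number shows neither the silencing nor the cDNA, and it gives no check of the labels. The exon that sets ECM1a apart from ECM1b is exon 7 of ECM1a, which runs from 150483933 to 150484307 and is 375 nt long. The junction at its start and the junction of ECM1b that skips it are shown because they tell the re-expressed isoform from the other one. Each is 60 nt of the annotated cDNA, 30 nt on either side of the junction, 5′ to 3′, with the bases of exon 7 of ECM1a in capitals.
ECM1a, exon 6 to exon 7: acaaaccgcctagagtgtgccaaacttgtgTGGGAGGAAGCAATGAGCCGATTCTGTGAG
ECM1b, exon 6 to its next exon: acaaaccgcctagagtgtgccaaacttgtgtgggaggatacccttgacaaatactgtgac

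The library of A8i-A held 22691 events and that of A8i 20535, against 24513 in A8 and 24236 in A8i-B. The A8i-A total was 110.5% of the A8i total (95% exact Clopper-Pearson interval, 108.4–112.6%), an interval that takes events as independent and covers counting error only. A8i had the lowest total of the 4, so genes tended to have more events than in A8i in each of the others. More events in A8i-A than in A8i were listed for 3323 genes, fewer for 2304 and the same number for 2983. With each library scaled to its total, the split turned to 3307 genes higher and 5303 lower, mostly because genes with equal numbers then fall on the lower side. The total ratio is 0.14 on the log2 scale, and that is the shift a gene has to exceed to stand above its library.

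Most differences were small. A single event separated the libraries for 1982 genes with more and 1492 with fewer events in A8i-A. An event number at least 2-fold higher in A8i-A, on the scale of events plus 1, was listed for 1788 genes, or 20.8% of the 8610, and at least 2-fold lower for 1096, or 12.7%. Of these, 963 and 620 went from 0 to 1 or from 1 to 0. After scaling to the totals the counts were 572 higher and 1097 lower. A gain of at least 4 events was listed for 301 genes (3.5%) and a loss of at least 4 for 168 (1.95%), with 133 and 80 of them at exactly 4, and 323 and 180 more genes just outside at 3. Scaling changed these to 157 and 178.

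**Figure D1:**
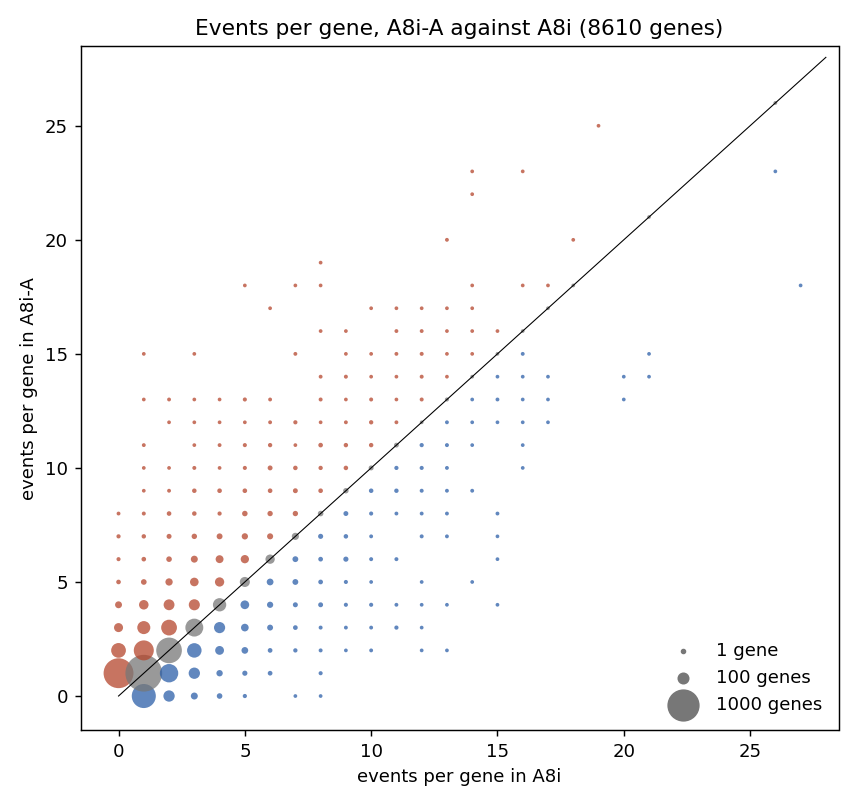
Events per gene in A8i (x axis) and A8i-A (y axis) for the 8610 genes with an event in either library; the area of a point grows with the number of genes at that pair of values, red lies above the line of equal numbers and blue below it. Most genes sit at a few events near the line, and the widest departures are a gain of 14 and a loss of 11 events.

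The departure between A8i-A and A8i was about as wide as that between any other pair of libraries. The summed absolute difference over genes was 9818 events, and in the other 5 pairs it lay between 9963 and 10234. The same number in both libraries was listed for 34.6% of the genes with an event in either, with 34.2–36.5% in the other pairs. A difference of at least 4 events was listed for 5.45% of genes, with 5.09–5.91% in the others. A8i-A and A8i-B, which differ in the isoform and may differ in vector and selection, were 9963 events apart, and A8 and A8i 10234.

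Among the 15 genes with the largest gains, NOP14-AS1 led, an antisense transcript of NOP14, a factor of small ribosomal subunit assembly (chromosome 4, 2936609 to 2963465, forward strand). It stood at 2 (A8), 1 (A8i), 15 (A8i-A) and 8 (A8i-B) events. A8i-A is thus well above A8i and A8, with A8i-B between. KRT15, a keratin of basal epithelial cells (chromosome 17, 39669997 to 39678781, reverse strand), stood at 8 (A8), 5 (A8i), 18 (A8i-A) and 3 (A8i-B) events. A8i-A stands alone here, since the other 3 libraries lie within 5 events of each other. THBS3, which encodes thrombospondin-3, a secreted matrix glycoprotein (chromosome 1, 155165379 to 155178842, reverse strand), stood at 5 (A8), 2 (A8i), 13 (A8i-A) and 3 (A8i-B) events, again with A8i-A alone. CLEC2D, which encodes a lectin-like ligand of a natural killer cell receptor, stood at 1 (A8), 1 (A8i), 11 (A8i-A) and 3 (A8i-B) events.

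In other genes of this group A8i was the library that stood apart. ZNF561, a zinc finger gene (chromosome 19, 9715356 to 9731912, reverse strand), stood at 9 (A8), 1 (A8i), 13 (A8i-A) and 12 (A8i-B) events. TARBP1, which encodes an RNA methyltransferase, had 12, 2, 13 and 7 in the same order. In both, A8i is far below each of the other libraries, and A8i-A lies close to A8 or A8i-B. DNHD1, a gene of a dynein heavy chain domain, was alike, with 13 events in A8, 6 in A8i and 17 in A8i-A as well as in A8i-B.

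PACRGL (chromosome 4, 20697905 to 20754530, forward strand) was listed with 5 (A8), 3 (A8i), 15 (A8i-A) and 9 (A8i-B) events. The antisense transcript TPT1-AS1 had 9, 7, 18 and 8 events in that order of libraries, and the long noncoding RNA CTD-2357A8.3, named SCAT1 in the annotation, had 13, 8, 19 and 6. Both have A8i-A highest and the silenced line close to A8i-B. HEXA, the α subunit of lysosomal β-hexosaminidase, went from 2 events in A8i to 12 in A8i-A, and TNK2, a tyrosine kinase that binds active CDC42, from 8 to 18. FBRSL1 (1 and 11 events in A8i and A8i-A), PYROXD2 (3 and 13) and the pseudogene CROCCP2 (1 and 10) complete the 15. A8i-A held the highest number of the 4 libraries in 14 of them and A8i the lowest in 12. The choice of genes by the difference between A8i and A8i-A favoured both counts. Of all 8610 genes, A8i-A alone was highest in 1241 and A8i alone was lowest in 1446.

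The 15 largest losses opened with RP11-54A9.1, a long noncoding RNA named LNCOG in the annotation (chromosome 12, 76653616 to 76699749, forward strand), with 5 (A8), 13 (A8i), 2 (A8i-A) and 7 (A8i-B) events. A8i is the highest library and A8i-A the lowest. ATG4D, a protease that trims ATG8 proteins in autophagy (chromosome 19, 10654571 to 10664094, forward strand), stood at 11 (A8), 15 (A8i), 4 (A8i-A) and 4 (A8i-B) events. Both lines with a re-expressed isoform are low here. NDOR1, a diflavin reductase of iron–sulfur cluster assembly, had 10, 12, 2 and 7 in that order.

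Several losses left A8i-A apart from 3 libraries that were close to each other. PPP6R3, a regulatory subunit of protein phosphatase 6, stood at 11 (A8), 13 (A8i), 4 (A8i-A) and 13 (A8i-B) events. TAF1C, a subunit of the factor that recruits RNA polymerase I, had 12, 14, 5 and 13 in the same order, and ANKS3 had 11, 11, 3 and 10. In these, A8i-A is low beside a narrow range of the others. SLMAP, a component of STRIPAK phosphatase complexes, stood at 20 (A8), 11 (A8i), 3 (A8i-A) and 18 (A8i-B) events, so that both A8i and A8i-A are below the remaining libraries.

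BCL2L13, a BCL2 family protein of mitochondria, paired A8i-A with A8, at 3 events each, against 12 in A8i and 14 in A8i-B. CPSF3L, now INTS11 and the catalytic subunit of Integrator, had the highest number of any gene in A8i, 27, and 18 in A8i-A, near the 19 of A8 and 17 of A8i-B. SMTN, an actin-binding protein of smooth muscle (15 and 6 events in A8i and A8i-A), GAK, a kinase of clathrin uncoating (10 and 2), UBE2F, a NEDD8-conjugating enzyme (11 and 3), PKD1, which encodes polycystin-1 (11 and 3), and DPH2, an enzyme of diphthamide synthesis (8 and 0), also had fewer events. The last of the 15 is a pseudogene listed as WASH7P (ENSG00000226210, WASH8P in the annotation), with 10 and 2 events. A8i-A was the lowest of the 4 libraries in 11 of the 15 and A8i the highest in 9, counts that the choice of genes favoured. Of all 8610 genes, A8i-A alone was lowest in 897 and A8i alone was highest in 877. PKD1, WASH7P and CROCCP2 have near-identical copies elsewhere in the genome. Of the 30 genes, 18 overlap an annotated gene on the other strand and 15 overlap one on the same strand. How events were assigned between overlapping genes, by strand or otherwise, is not given in the sources used here, so these numbers are uncertain.

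On the log2 scale of events plus 1 the 15 gains started at 1.08, with ZNF561 at 2.81 and KRT15 at 1.66, and were highest for NOP14-AS1 at 3, and the 15 losses from −0.56 for CPSF3L to −3.17 for DPH2, which had no event in A8i-A. The counting error of such numbers is wide. The 95% exact Poisson interval of NOP14-AS1 ran from 0.0253 to 5.57 events in A8i and from 8.40 to 24.7 in A8i-A, and that of ZNF561 from 0.0253 to 5.57 and from 6.92 to 22.2. In the other 13 gains and in all 15 losses the intervals of the libraries overlapped, for ATG4D with 8.40 to 24.7 events in A8i and 1.09 to 10.2 in A8i-A. These intervals leave out the choice of the genes as the most extreme of the 8610. Overlap of separate intervals also does not place a difference within counting error, and the differences were not tested.

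Events were listed in A8i-A with none in A8i for 1320 genes, and in A8i with none in A8i-A for 812. Among the first, 963 had a single event. The most events were those of VNN1, a pantetheinase, and DENND6B, at 8 events each in A8i-A. VNN1 had 3 events in A8 and 2 in A8i-B, and DENND6B had 4 and 1. AMT, an enzyme of the glycine cleavage system, had 7 events in A8i-A and 11 each in A8 and A8i-B, so that only A8i was at 0. GGT1, a γ-glutamyltransferase, had 7 in A8i-A with 5 in A8 and 6 in A8i-B, and NOXA1, an activator of NADPH oxidase, had 7 with 8 and 2. All 5 were thus listed in A8 and in A8i-B. Ties at 7 events went to genes with more events in A8 and A8i-B, so the choice favoured this. Of all 1320 genes, 774 had an event in A8 and 762 in A8i-B.

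The reverse was led by DPH2 and by YAF2, a Polycomb-associated protein, with 7 events in A8i, none in A8i-A, 4 in A8 and 2 in A8i-B. PHC1, a core Polycomb subunit, had 5 events in A8i, none in A8i-A, 5 in A8 and 6 in A8i-B. TTC3, a ubiquitin ligase, had 5 in A8i, none in A8i-A, 5 in A8 and 4 in A8i-B. In each of these genes A8i-A is the sole library without events. Ties at 5 events were settled in the same way. Of all 812 genes, 460 had an event in A8 and 447 in A8i-B.

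A8 and A8i-B played no part in choosing the larger groups, and their values for these groups lay between. The 301 genes with a gain of at least 4 held 1020 events in A8i and 2622 in A8i-A by choice, and 1881 in A8 and 1807 in A8i-B. A8 was closer to A8i-A for 135 of them and closer to A8i for 133, and A8i-B was closer to A8i-A for 130 and to A8i for 128. The 168 genes with a loss of at least 4 held 1452 events in A8i and 581 in A8i-A, and 1053 in A8 and 982 in A8i-B. A8 was closer to A8i-A for 82 of these and to A8i for 65, and A8i-B for 84 and 62. The groups as a whole therefore sat about midway in the other libraries, for gains and losses alike. Choosing genes by a large difference between A8i and A8i-A favours such a place, so it is no result about these genes.

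The genes with large differences in either direction had more annotated transcripts than the rest. The median was 15 annotated transcripts per gene for gains of at least 4 and 16 for losses, against 10 for the 8610 genes. Their longest transcripts had a median of 3745 nt for gains and 4294 nt for losses, against 3828 nt. Event numbers moved with the number of annotated transcripts, since the 2267 listed genes with at least 16 transcripts held 8739 events in A8i and the 2376 with at most 6 held 3091. The part of the event number in these medians was not tested.

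Long noncoding RNAs showed a wider gap than protein-coding genes. The 517 long noncoding RNAs of the table held 553 events in A8i and 797 in A8i-A, or 144% (interval, 129–161%), whereas the 9050 protein-coding genes held 19516 and 21297, or 109% (107–111%). Of 376 long noncoding RNAs with an event in either library, 208 had more events in A8i-A, 93 fewer and 75 the same, and 179 were at least 2-fold higher, or 47.6%, beside the 20.8% of all genes. At least 2-fold lower were 69, or 18.4%, beside 12.7%, so that such differences were more frequent in both directions. The 133 with an antisense symbol, such as NOP14-AS1 and TPT1-AS1, held 141 events in A8i and 229 in A8i-A, or 162% (131–202%). The gap was not particular to A8i-A, since long noncoding RNAs held 830 events in A8 and 786 in A8i-B, which is 150.1% and 142% of A8i. Among genes with an event in both libraries, an alternative chosen after seeing the data, the ratio for long noncoding RNAs was 120% (106–136%) and for protein-coding genes 106% (104–109%). Pseudogenes held 334 and 424 events in A8i and A8i-A, or 127% (110–147%).

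The ratio also moved with how many events a gene had in the libraries that were not compared. In the 671 genes with no event in A8 and A8i-B but an event in A8i or A8i-A, A8i held 392 events and A8i-A 542, or 138% (121–158%). With 1 to 2 events in A8 and A8i-B together the ratio was 116% (110–123%), and with 21 or more it was 107% (101–113%). Long noncoding RNAs mostly have few events, and the part of low event numbers in their ratio was not tested.

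**Figure D2:**
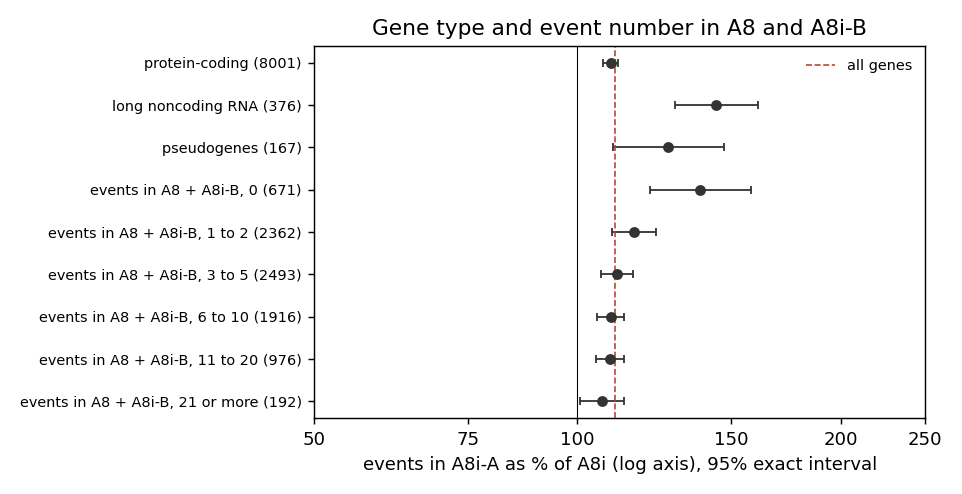
Events in A8i-A as a percentage of those in A8i (x axis, log scale) with 95% exact intervals for gene types and for genes grouped by their summed events in A8 and A8i-B; the number of genes with an event in A8i or A8i-A is in brackets and the dashed line marks all genes, 110.5%. Long noncoding RNAs at 144% and genes without events in A8 and A8i-B at 138% lie furthest to the right.

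Transcript length divided the genes less. For the 2455 genes whose longest annotated transcript is at most 2459 nt the ratio was 114% (110–119%), and for the 2454 genes with one of at least 5678 nt it was 107% (103–112%). For the same genes A8i-B stood at 113% and 123% of A8i, and A8 at 113% and 128%, so that the order over length was the opposite in those libraries. By gene span, the 2455 widest genes were at 106% (102–110%) and the 2455 narrowest at 112% (108–116%). These comparisons share the A8i library.

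Genes were also grouped by the letters that open their symbols, for 102 such families with at least 10 genes listed in A8i or A8i-A. The excess of a family is its events in A8i-A minus those expected from A8i and the ratio of the totals. The SLC family of solute carriers, which move ions, sugars, amino acids and metabolites across membranes, had the largest excess. Its 152 genes held 243 events in A8i and 313 in A8i-A, or 129% (109–153%), beside 354 in A8 and 298 in A8i-B. Of 123 listed, 56 had more events in A8i-A, 29 fewer and 38 the same, with 29.3% at least 2-fold higher, beside 20.8% of all genes, and 12.2% at least 2-fold lower, beside 12.7%. SLC4A3, an anion exchanger, stood at 2 (A8), 0 (A8i), 6 (A8i-A) and 10 (A8i-B) events, and SLC29A2, a nucleoside transporter, had 7, 2, 8 and 3. In both the silenced line is the lowest.

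The EIF family of translation initiation factors had few genes on the lower side. Of 39 listed genes, 21 had more events in A8i-A, 4 fewer and 14 the same, with 120 events in A8i and 162 in A8i-A, or 135% (106–172%). Over all 8610 genes, 38.6% had more, 26.8% fewer and 34.6% the same. In the EIF family 23.1% were at least 2-fold higher, near the 20.8% of all genes, and 5.13% at least 2-fold lower, beside 12.7%. Its median log2 ratio was 0.32, beside 0 over all listed genes. EIF3B, the scaffold of the eIF3 complex, stood at 10 (A8), 6 (A8i), 12 (A8i-A) and 10 (A8i-B) events, EIF4A1, the helicase of the cap-binding complex, had 9, 8, 13 and 13, and EIF2B2, a subunit of the exchange factor for eIF2, had 4, 0, 4 and 1. The whole family held 140 events in A8 and 150 in A8i-B, both also above A8i.

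Zinc finger genes with the prefix ZNF, mostly encoding DNA-binding repressors, held 426 events in A8i and 510 in A8i-A, or 120% (105–136%). Of 250 listed, 115 had more, 72 fewer and 63 the same. At least 2-fold higher were 32%, beside 20.8% of all genes, and at least 2-fold lower 20%, beside 12.7%. Such differences were thus more frequent in both directions. A gain of at least 4 events was listed for 5 ZNF genes and a loss of at least 4 for 7. Next to ZNF561, ZNF266 stood at 9 (A8), 9 (A8i), 16 (A8i-A) and 19 (A8i-B) events, and ZNF211 had 8, 2, 8 and 5. The family total was higher still in A8i-B, at 620.

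The remaining families with an excess are groups of names rather than of functions. LINC genes, long intergenic noncoding RNAs, held 96 events in A8i and 133 in A8i-A, or 139% (106–182%), with LINC01089 at 0 and 4 events, LINC00969 at 3 and 7, and LINC00174 at 0 and 3. LINC00174 had none in A8 and A8i-B. Genes named after sequencing clones went the same way, with 58 and 94 events for the prefix AC, or 162% (116–229%), 220 and 276 for RP, or 125% (105–150.5%), and 29 and 47 for CTD, or 162% (99.9–267%). The largest difference among RP genes was the loss of RP11-54A9.1, from 13 to 2 events. CTD-2357A8.3, from 8 to 19 events, gave 11 of the 18 additional CTD events, and without it the CTD ratio was 133% (73.0–247%). Of the others, AC156455.1 had 1 event in A8i and 8 in A8i-A, AC097724.3 had 0 and 6, RP11-654C20.1 had 0 and 7, and CTD-2006C1.2 had 0 and 4. Genes with the prefix C, mostly open reading frames named by chromosome, held 288 and 343 events, or 119% (102–140%). Without genes at 0 in either library, where the ratio over all genes was 107%, RP stood at 102% (82.5–127%), LINC at 108% (80.1–145%), C at 108% (91.0–128%), AC at 123% (84.0–181%) and CTD at 155% (85.6–287%). The other families with an excess were then lower too, with SLC at 121% (101–145%), EIF at 126% (98.4–161%) and ZNF at 114% (98.6–131%). Of the 8 families with an excess, 7 had intervals in the full table that include the 110.5% of all genes, and AC alone lay above it.

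ATG genes, the autophagy machinery, had the largest deficit, with 87 events in A8i and 68 in A8i-A, or 78.2% (56.1–109%). Of 13 listed, 1 had more events, 6 had fewer and 6 the same. ATG4D accounts for 11 of the 19 events, ATG9A, the membrane-spanning scramblase of autophagy, had 10 events in A8i and 7 in A8i-A, and ATG4C had 3 and 1. This interval lies below the 110.5% of all genes, but without ATG4D the ratio was 88.9% (62.5–126%), an interval that includes it. The intervals of the next 7 families include 110.5%, and those of all 8 include 100%. In A8 and A8i-B the ATG genes held 76 events each.

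UBE genes, mostly ubiquitin-conjugating and ubiquitin ligase enzymes, held 92 events in A8i and 77 in A8i-A, or 83.7% (61.0–115%), with 7 of 31 listed genes higher and 8 lower. UBE2F stood at 12 (A8), 11 (A8i), 3 (A8i-A) and 7 (A8i-B) events, and UBE2V1, a conjugating enzyme variant that makes lysine-linked chains with UBE2N, had 7, 12, 4 and 10. UBE3A, a ubiquitin ligase that acts in neurons, had 14, 3, 5 and 13, so that A8i and A8i-A were both low. The deficit rests on UBE2F and UBE2V1, the sole members with a loss of at least 4.

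ZC genes, zinc finger proteins many of which bind RNA, held 44 and 30 events in A8i and A8i-A, or 68.2% (41.4–111%). ZC2HC1A stood at 2 (A8), 8 (A8i), 1 (A8i-A) and 1 (A8i-B) events, ZC3H14, a poly(A)-binding protein, had 7, 13, 8 and 11, and ZC3H13, a subunit of the RNA m6A methyltransferase complex, had 3, 8, 4 and 4. In all 3 A8i was the highest library. CEP genes of the centrosome held 85 and 76, or 89.4% (64.7–123%), with CEP164 at 6, 14, 9 and 10 events in that order, and again A8i on top.

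RBM genes, RNA-binding motif proteins of which several act in splicing, held 96 and 88 events, or 91.7% (67.9–124%), with 4 of 27 higher and 9 lower. The prefix RPS, mostly ribosomal proteins of the small subunit, held 116 and 111, or 95.7% (73.1–125%). RPS15A had 9 events in A8, A8i and A8i-B and 3 in A8i-A, and without it the ratio turned to 101%. ATP genes, pumps and ATP synthase subunits among them, stood at 93.9% (69.9–126%) and RNF genes, which encode RING finger proteins, at 96.5% (73.7–126%). In ATP the largest difference was a higher number, that of ATP13A2, a lysosomal transporter, at 6 events in A8i and 10 in A8i-A, and in RNF likewise that of RNF17, at 5 and 10.

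**Figure D3:**
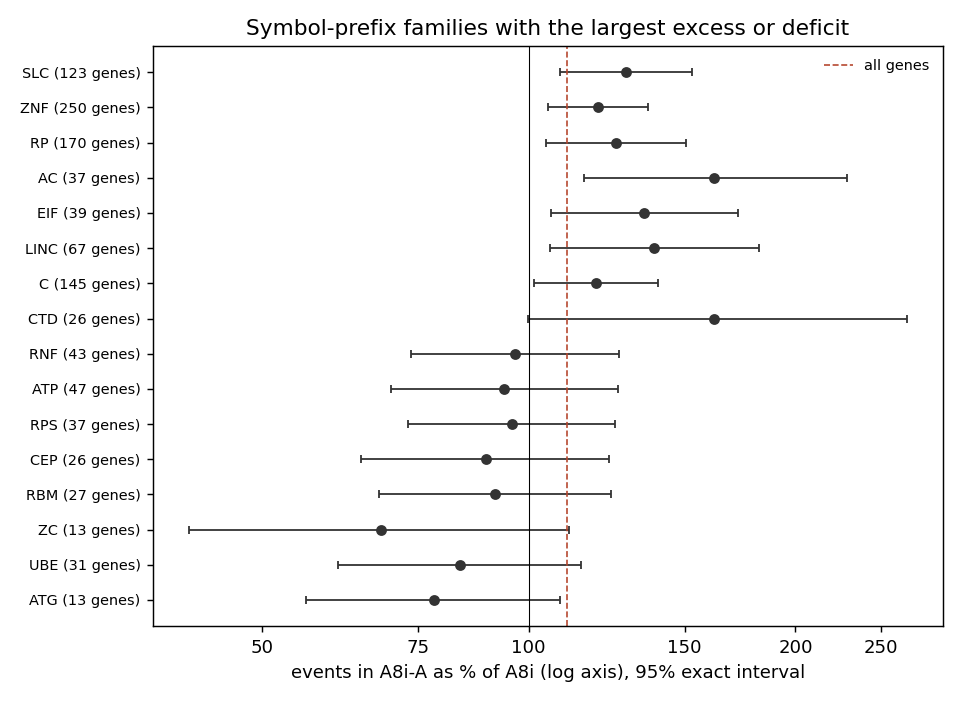
Events in A8i-A as a percentage of those in A8i (x axis, log scale) with 95% exact intervals for the 8 symbol-prefix families with the largest excess and the 8 with the largest deficit; the number of listed genes is in brackets and the dashed line marks all genes. The intervals of 7 of the 8 families with an excess and of 7 of the 8 with a deficit include the dashed line at 110.5%, AC lying above it and ATG below.

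Lists of genes were then described for the functions that the study linked to ECM1. Integrin subunits, the matrix receptors, were listed for 10 of 12 genes in the table, with 24 events in A8i and 32 in A8i-A, or 133% (76.1–237%), of which 5 had more events, 1 fewer and 4 the same. ITGA10, a collagen receptor subunit, stood at 3 (A8), 0 (A8i), 4 (A8i-A) and 3 (A8i-B) events, and ITGA6, a laminin receptor subunit, had 3, 2, 4 and 5. A8i is the lowest library in both. ITGB2, the β2 chain of leukocyte integrins, had 3, 2, 3 and 2, and ITGAX, the αX chain that pairs with it, had a single event in A8 and none in the other libraries. ITGAX therefore gave no value for this comparison.

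Matrix proteins, the ligands, held 52 events in A8i and 67 in A8i-A, or 129% (88.4–189%), and 108% (72.1–162%) without THBS3. Of 24 listed, 11 had more events and 8 fewer. THBS3 gave the largest gain, and COL13A1, a transmembrane collagen, stood at 12 (A8), 4 (A8i), 10 (A8i-A) and 8 (A8i-B) events. LAMA5, the α5 chain of laminins, went the other way with 3, 8, 1 and 6, and LAMA4, the α4 chain, had 0, 0, 2 and 2. In LAMA5 A8i-A is the lowest library, and in THBS3 the highest.

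Downstream of the receptors the raw totals were close. The list of adhesion and AKT signalling genes held 80 and 84 events in A8i and A8i-A, or 105% (76.4–144%), with 10 of 26 higher and 8 lower, and scaled to the totals it turned to 95.02%. PXN, which encodes the adhesion adaptor paxillin, stood at 10 (A8), 10 (A8i), 13 (A8i-A) and 9 (A8i-B) events, AKT2 had 9, 7, 10 and 12, and PTK2, focal adhesion kinase, had 11, 12, 10 and 10. Myosin and actin genes held 114 and 107, or 93.9% (71.4–123%), and 84.9% after scaling, with PPP1R12A, the targeting subunit of myosin phosphatase, at 6, 8, 4 and 6. A8i-A is the lowest library in this gene.

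Splicing regulators had nearly the same raw totals, where all genes stood at 110.5%. The 21 hnRNP and related genes held 94 events in A8i and 96 in A8i-A, or 102% (76.0–137%), and 92.4% after scaling, with 6 higher, 4 lower and 11 the same. HNRNPLL stood at 2 (A8), 1 (A8i), 2 (A8i-A) and 2 (A8i-B) events, HNRNPL had 1 in each library, and HNRNPM had 6, 6, 7 and 7. These differ by at most 1 event. HNRNPC, which binds uridine tracts of pre-mRNA, had 8, 13, 8 and 10, the widest difference of the list, and HNRNPUL1 had 5, 1, 4 and 1. SR proteins and their kinases held 106 and 98 events, or 92.5% (69.5–123%), and 83.7% after scaling, with 6 of 21 higher and 10 lower. SRSF1 had 4, 7, 8 and 5 events, TRA2A, a splicing activator, had 15, 12, 15 and 15, and SRSF11 had 6, 9, 6 and 4. HNRNPU was not analysed here.

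ABC transporters held 56 and 58 events, or 104% (70.5–152%), and 93.7% after scaling, with 7 of 19 listed genes higher and 8 lower. ABCG1, a cholesterol exporter, stood at 2 (A8), 1 (A8i), 2 (A8i-A) and 2 (A8i-B) events, a difference of 1 event. ABCA7, a phospholipid transporter, had 13, 4, 12 and 10, with A8i far below the others, and without it the ratio of the list was 88.5%. ABCC3, an organic anion exporter, was listed with 4 events in A8i and none in A8, A8i-A or A8i-B. Genes of cholesterol synthesis and uptake held 64 and 68 events, or 106% (74.4–152%), and 96.2% after scaling, with 15 of 25 at the same number. FDPS, an enzyme of isoprenoid synthesis, had 8, 5, 8 and 6, and TM7SF2, a sterol reductase, had 9, 9, 6 and 4.

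Of 22 stem cell markers, 10 were in the table and 9 of these were listed. They held 29 events in A8i and 22 in A8i-A, or 75.9% (41.5–137%). Of the 9, 1 had more events and 5 fewer, beside 38.6% and 26.8% of all 8610 genes. So few genes do not describe the markers as a whole, and the split was not tested. CD44, a hyaluronan receptor with many variable exons, accounts for 4 of the 7 events, with 16 (A8), 17 (A8i), 13 (A8i-A) and 17 (A8i-B) events. EPCAM, which encodes CD326, had no event in any of the 4 libraries. Genes of cisplatin transport and DNA crosslink repair held 78 and 81 events, or 104% (75.1–144%), and 94.0% after scaling, with FANCA at 9, 9, 13 and 14, FANCD2 at 1, 1, 4 and 2 and BRCA1 at 6, 6, 3 and 6 events in the order used above. FANCA and FANCD2 belong to the Fanconi anaemia pathway of crosslink repair, and in BRCA1, a mediator of homologous recombination, A8i-A was the lowest library. Without FANCA the list stood at 98.6%.

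**Figure D4:**
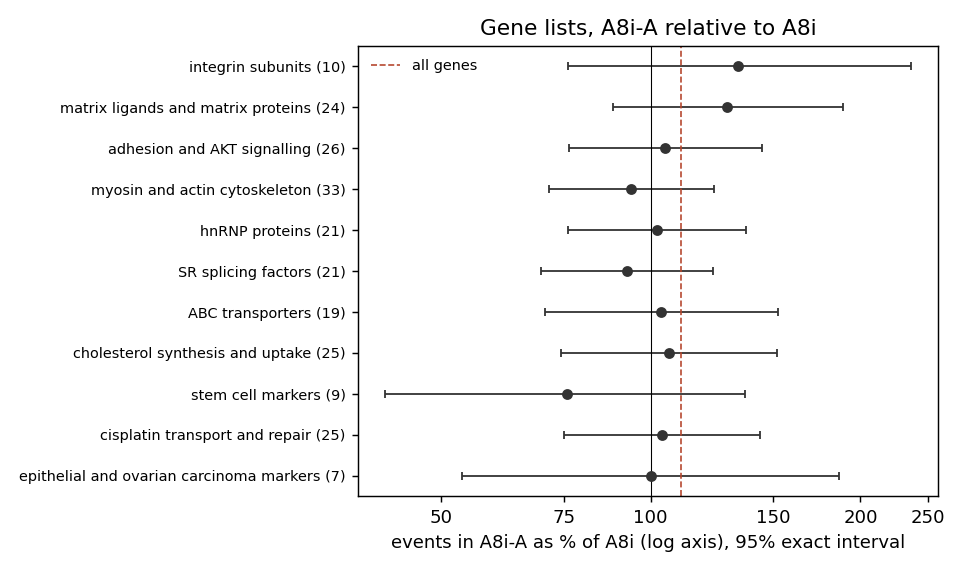
Events in A8i-A as a percentage of those in A8i (x axis, log scale) with 95% exact intervals for the gene lists with at least 7 listed genes; the number of listed genes is in brackets and the dashed line marks all genes, 110.5%. Every interval in the plot includes both 100% and the value of all genes.

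The labelled cell type could be checked only by whether a marker had an event. Of 18 markers of epithelium and ovarian carcinoma, 8 were in the table and 7 had an event in A8i or A8i-A, among them KRT18 with 1 event in each library, MSLN with 1 in A8i and 2 in A8i-A, and WT1 with 0 and 1. Mesenchymal markers were also listed, VIM with 1 and 3 events and FN1 with 11 and 10. Of 12 leukocyte markers CD14 alone was in the table, with no event in A8i and A8i-A, and of 6 endothelial markers ENG alone, with 2 events in A8i and none in A8i-A. A gene absent from the table was not analysed here.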

How the data were processed

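RNA of HEYA8 and its 3 derivatives was sequenced, 1 library per line. Per the study's methods, the authors used Trim Galore for trimming, TopHat for alignment to hg19 and Cufflinks for transcript levels (version 2.2.1 in the submitters' processing notes, which also name the mouse build GRCm38). The deposited values are event numbers per gene, and the counting program, kind of event and filters are not given in the sources used here. The study's methods give a range for the amount of sequence obtained. No value is given for each library, so depth per library is unknown. The number of columns left unused is 0.

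Ratios of summed events have 95% exact Clopper-Pearson intervals conditional on both sums. Log2 ratios used a pseudocount of 1. With 1 library per line no test was made. Families were named by excess (8 highest and 8 lowest, at least 10 listed genes), genes by difference (15 each way; 5 each way at 0 in the other library), and up to 3 members of a family and 4 of a list; ties went to the larger log2 ratio. Some items that this rule names are not reported here. Symbols are those of the table, of which 16 are stored as dates and belong to no family. Members, lists and the step of 4 events were chosen with earlier results of these data known. Genes were joined by Ensembl identifier to GENCODE v44 on GRCh37 (9818 of 9885, 99.3%). The functions were tested on simulated data with changes placed only in genes with several events. That test does not show how the calls perform in genes with few events. Python 3.11.15, numpy 2.4.6, pandas 2.3.3, scipy 1.17.1 and matplotlib 3.10.9 were used.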

Additional observations from a re-analysis of the deposited data

How the results depend on the processing

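Scaling to the library totals left 3307 genes higher in A8i-A but raised those lower to 5303, cut the genes at least 2-fold higher to 572, since a step from 0 to 1 event then misses the limit, and cut the gains of at least 4 events to 157. Genes with an event in both libraries gave a total ratio of 107% (105–109%), 2003 genes higher, 1492 lower, 468 at least 2-fold higher and 284 at least 2-fold lower, as fewer genes enter. A fold of 3 left 423 higher and 236 lower. The ratios that crossed 100% were those of the lists of adhesion and AKT signalling (95.02%), hnRNP proteins (92.4%), ABC transporters (93.7%), cholesterol (96.2%) and cisplatin genes (94.0%) on scaling, and, without the gene of the largest difference, those of RPS (101%), ABC transporters (88.5%) and cisplatin genes (98.6%). A pseudocount of 0.5, leaving out the 99 genes with most events, protein-coding genes alone and a minimum of 2 events kept each count within 1.5 times and the total ratio above 100%. The log2 ratios of named genes kept their sign under both alternatives tried. No paired analysis was possible because each line has 1 library. The number of events behind most genes, 1 or 2, limits every statement on single genes.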

Other observations

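By chromosome, A8i-A held more events than A8i on 22 of the 23 compared, from 98.4% of A8i on chromosome 18 to 121% on chromosome 22. Chromosomes 6, 13 and 22 had the highest ratios, at 119%, 120% and 121%, and 4, 18 and 21 the lowest, at 103%, 98.4% and 101%. In A8i-B the ratio to A8i on chromosome 18 was 122%. These ratios share the A8i library and are given without an explanation.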
